A study of Mus musculus with 6 samples.

Results

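The insulin-like growth factor (IGF) axis was followed in mouse fibroblasts with and without the long noncoding RNA *Hotair*. The genes examined were the ligand *Igf1*, its receptor *Igf1r*, the binding proteins *Igfbp2* to *Igfbp7* and the RNA-binding proteins *Igf2bp2* and *Igf2bp3*, and every probe set that the platform annotation assigns to 1 of them alone was taken. This gave 30 of the 45037 probe sets on the array and 9 of the 10 genes; *Igf2bp2* was not analysed here, since the annotation names none for it. RNA came from neonatal tail tip fibroblasts of 2 genotypes, *Hotair* wildtype and *Hotair* knockout, both from mice backcrossed to C57BL6, with 3 Affymetrix arrays per genotype and no treatment or time point in the labels. The sources used here do not give the age of the pups beyond neonatal, the design of the *Hotair* allele, or whether each array stands for a different animal or culture. *Hotair* itself was not analysed here, which leaves the genotype labels without a check on the deleted gene.

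IGF1 is a secreted growth factor that binds the receptor tyrosine kinase IGF1R and signals through insulin receptor substrates, PI3 kinase and Akt. The IGF binding proteins are secreted carriers that hold most extracellular IGF, and they can withhold the ligand from its receptor or, after proteases cleave them, release it. Fibroblasts and other mesenchymal cells are a common source of IGF1 and of several binding proteins. Despite its similar name, IGF2BP3 is an intracellular protein that binds messenger RNAs, among them that of *Igf2*, and belongs to another family than the secreted carriers.

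All values are log2 RMA values, so a difference of 1 is a change of 2-fold, and the medians of the 6 arrays lay between 5.56 and 5.68. Replicate 1 of both genotypes stood apart from the other 4 arrays on the first principal component (wild type at −114.7, knockout at −82.7, the others from 39.3 to 74.7), a component holding 48.9% of the variance. On these 2 arrays the median of 30 measured proliferation genes was 7.81 and 8.25, against 10.65 to 11.13 on the others. Knockout replicate 1 also had the widest gap between 3′ and 5′ control probes, which grows as RNA degrades (0.63 for *Actb* and 0.75 for *Gapdh*, against at most 0.21 and −0.03 elsewhere). All 18 fibroblast markers were measured, with a median between 11.72 and 12.56 on each array and *Col1a2* between 14.35 and 14.68, but on wild-type replicate 2 *Thy1* (4.65), *Lum* (5.03) and *Dpt* (4.61) lay below the median of all probe sets (5.64). Results are therefore given over all 6 arrays and again over the 4 arrays of replicates 2 and 3.

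On their brightest probe sets all 6 binding proteins and *Igf2bp3* had a higher mean in knockout over the 6 arrays, and *Igf1* and *Igf1r* a lower one, but no probe set passed the test. Of the 30 probe sets, 20 lay higher in knockout and 10 lower, with a median difference of 0.62, against 49.1% higher and a median of −0.00 over all probe sets. Probe sets of 1 gene are not independent. *Igfbp4* and *Igf2bp3* gave 6 each of those higher, and *Igf1* and *Igf1r* gave 4 and 5 of those lower. By limma 0 of the 30 had an adjusted p under 0.05, as did 0.0% of all probe sets. At an unadjusted p under 0.05 there were 5 higher (1 of *Igfbp2* and 4 of *Igf2bp3*), where 2.89% of all probe sets were, and 2 lower (both of *Igf1r*), where 2.45% of all probe sets were. The 3 knockout values lay above all 3 wild-type values for those same 5 probe sets, against 4.48% of all probe sets, and below them for 1 of *Igf1r*, against 4.43%. All 30 had a mean over the 6 arrays at or above the median of all probe sets (5.64). The shares over all probe sets include dim ones, so they are not a like comparison. In RNA from whole cultures, fewer cells of a type and less RNA per cell cannot be told apart.

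**Figure D1:**
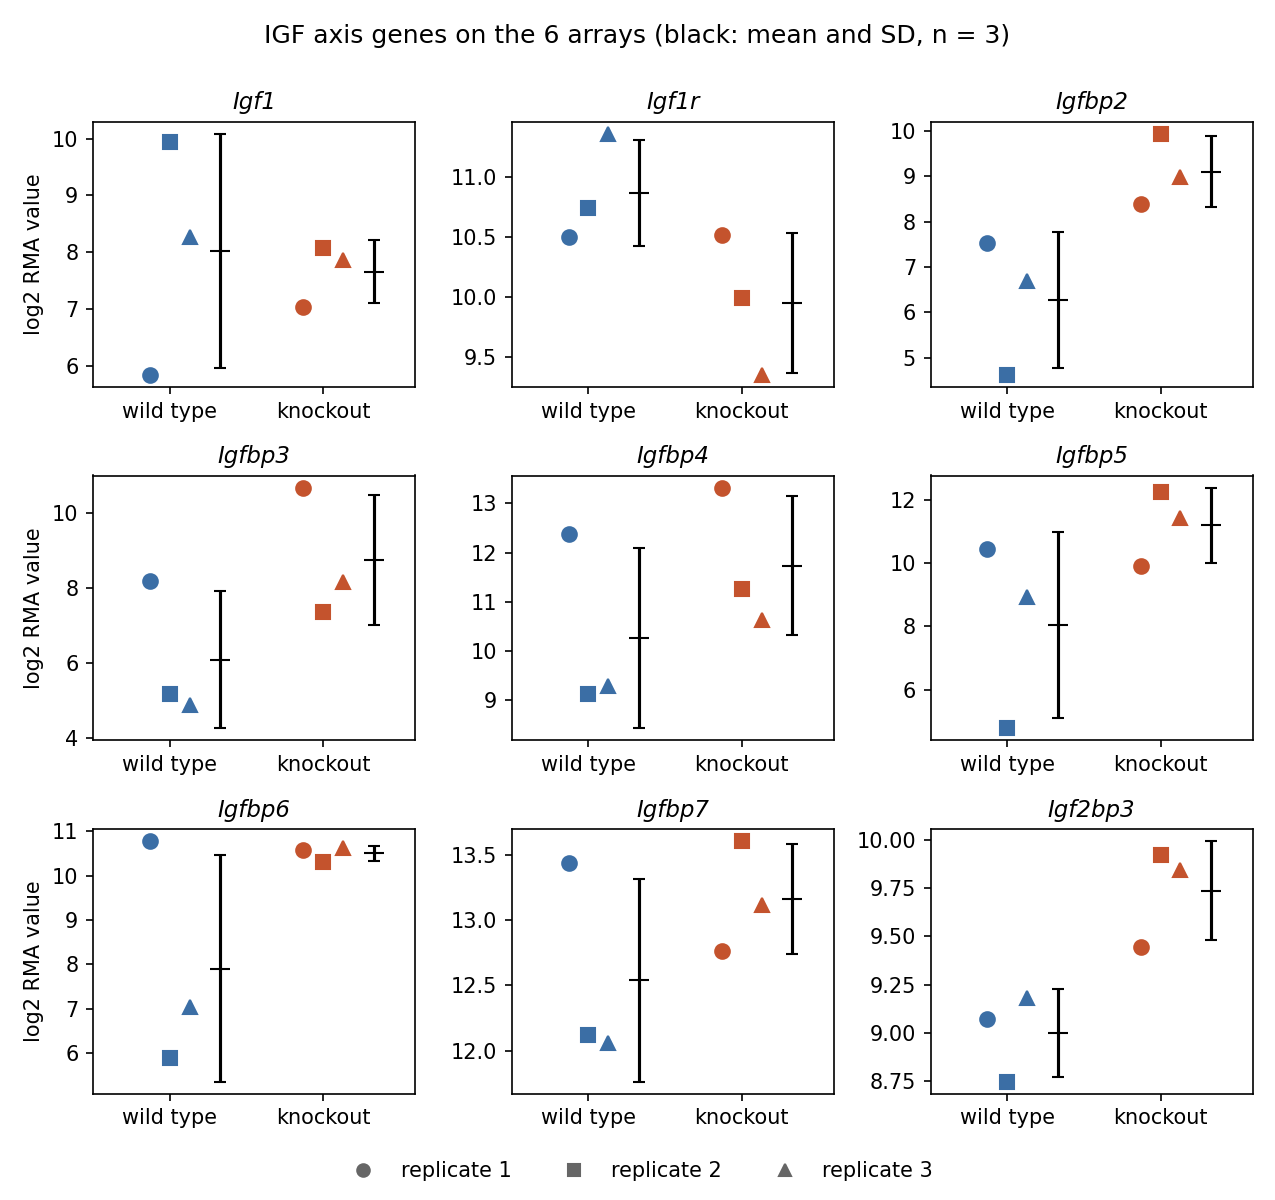
Log2 RMA value (vertical axis) of each IGF axis gene on its brightest probe set in wild type and *Hotair* knockout, with marker shapes for the replicate number and black bars for the mean and SD of 3 arrays. The genotypes do not overlap for *Igfbp2* and *Igf2bp3*, and wild-type replicate 1 lies apart from wild-type replicates 2 and 3 for *Igf1*, *Igfbp3*, *Igfbp4*, *Igfbp6* and *Igfbp7*.

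The ligand *Igf1* varied more among wild-type arrays than between genotypes. Its brightest probe set (1452014_a_at) measured 5.84, 9.94 and 8.26 in wild-type replicates 1, 2 and 3, and 7.02, 8.07 and 7.85 in knockout. Replicate 1 was the lowest array in both genotypes, and the knockout values lay within the wild-type range. The difference was −0.36 ± 1.03 (SE; limma adjusted p = 1.0). All 4 probe sets lay lower in knockout, from −0.71 to −0.36. By replicate number the brightest probe set differed by 1.19, −1.87 and −0.41, so replicate 1 had the opposite sign to replicates 2 and 3. Wild-type replicate 1 lay 3.27 below the mean of wild-type replicates 2 and 3, and knockout replicate 1 lay 0.94 below that of knockout replicates 2 and 3. Without wild-type replicate 2 the difference turned to 0.60.

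The receptor *Igf1r*, through which IGF1 acts, had lower means in knockout on all 5 of its probe sets. On the probe set 1426565_at the wild-type arrays measured 9.75, 9.78 and 9.62 and the knockout arrays 9.36, 8.98 and 8.75. Every knockout value lay below every wild-type value, and the difference was −0.69 ± 0.19 (SE), or 1.61-fold lower (limma adjusted p = 0.924; exact two-sided permutation p = 0.1, the smallest that 3 against 3 arrays can give). The brightest probe set (1452982_at) measured 10.50, 10.74 and 11.36 on the wild-type arrays and 10.51, 9.99 and 9.35 on the knockout arrays, a difference of −0.91 ± 0.37 (SE). Here knockout replicate 1 equalled wild-type replicate 1, with 0.01 between them, while replicates 2 and 3 differed by −0.75 and −2.01. The probe set 1428967_at was at −0.94 ± 0.47 (SE), and the other two were near 0, at −0.05 and −0.02. The probe sets of *Igf1r* therefore did not agree on the size of the difference.

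Among the carriers, *Igfbp2* had the clearest separation of genotypes. Its only probe set (1454159_a_at) measured 7.54, 4.63 and 6.69 in wild type (6.28 ± 1.50, SD, n = 3) and 8.39, 9.93 and 8.99 in knockout (9.10 ± 0.78, SD, n = 3). The lowest knockout array lay above the highest wild-type array. Wild-type replicate 2 was the lowest of all and lay below the median of all probe sets (5.64). The difference was 2.82 ± 0.81 (SE), or 7.06-fold (limma adjusted p = 0.924; exact two-sided permutation p = 0.1), and all 3 replicate numbers differed in the same direction, by 0.85, 5.31 and 2.30. Without wild-type replicate 2 the difference was 1.99.

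*Igfbp5*, a carrier that binds the extracellular matrix, is the next protein-coding gene to *Igfbp2* on chromosome 1, with 0 others between them in the RefSeq gene order. Its brighter probe set (1452114_s_at) measured 10.45, 4.78 and 8.94 on the wild-type arrays and 9.91, 12.25 and 11.43 on the knockout arrays. Replicates 2 and 3 were higher in knockout by 7.47 and 2.49, but replicate 1 was lower by −0.54, so the groups overlapped. The difference was 3.14 ± 1.52 (SE), or 8.82-fold, and it was 1.50 without wild-type replicate 2. That array lay below the median of all probe sets (5.64). The second probe set (1422313_a_at) was at 0.78 ± 0.34 (SE), with values of 6.52, 6.99 and 6.17 on wild-type arrays and 6.94, 7.14 and 7.94 on knockout arrays.

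*Igfbp3*, which carries most IGF in blood, was higher in knockout within every replicate number. The probe set 1423062_at measured 8.19, 5.18 and 4.89 on the wild-type arrays and 10.68, 7.36 and 8.17 on the knockout arrays. Wild-type replicates 2 and 3 lay below the median of all probe sets (5.64). Replicate 1 was the highest array of each genotype, and wild-type replicate 1 exceeded knockout replicates 2 and 3, so the groups overlapped. The differences by replicate number were alike (2.49, 2.17 and 3.28). The difference was 2.65 ± 1.21 (SE), or 6.26-fold, and its SE was 0.26 once arrays were paired by number in a block (limma adjusted p = 0.951, and 0.536 in the paired fit). Without knockout replicate 1 the difference was 1.68. The second probe set (1458268_s_at) differed by 1.87, 2.24 and 1.94 within the replicate numbers. *Igfbp1*, its neighbour on chromosome 11 with 0 protein-coding genes between them, lay between 3.59 and 3.95 on all 6 arrays and differed by −0.16 ± 0.14 (SE).

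*Igfbp4*, a carrier whose cleavage by the protease PAPPA releases IGF, was higher in knockout on all 6 of its probe sets, by 0.62 to 2.74. The brightest (1437406_x_at) measured 12.38, 9.13 and 9.28 on the wild-type arrays and 13.32, 11.25 and 10.62 on the knockout arrays. Replicate 1 was again the highest array of each genotype, 3.17 above the mean of the other two arrays in wild type and 2.38 in knockout. Within replicate numbers the differences were 0.94, 2.12 and 1.34, and the difference of means was 1.47 ± 1.11 (SE; limma adjusted p = 1.0). Without knockout replicate 1 it was 0.67 and without wild-type replicate 1 it was 2.52. The probe set with the widest difference (1423756_s_at) ran from 6.09 to 12.28 in wild type and from 9.96 to 13.23 in knockout. The 6 probe sets read 1 gene and are not independent measurements.

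*Igfbp6*, a carrier that prefers IGF2, lies on chromosome 15, with 21 protein-coding genes between it and *Hoxc13* at the near end of the Hoxc cluster, from which *Hotair* is transcribed. Its only probe set (1417933_at) measured 10.78, 5.89 and 7.03 on the wild-type arrays and 10.57, 10.31 and 10.62 on the knockout arrays. The knockout arrays lay close together (SD 0.17), and wild-type replicate 1 lay at their level, while wild-type replicates 2 and 3 were far below. The difference was 2.60 ± 1.23 (SE; limma adjusted p = 0.951), made up of −0.21, 4.42 and 3.59 by replicate number. Without wild-type replicate 1 it was 4.04, and without wild-type replicate 2 it was 1.59.

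*Igfbp7*, a related secreted protein with low affinity for IGF, differed least among the carriers. Its brightest probe set (1423584_at) measured 13.44, 12.12 and 12.06 on the wild-type arrays and 12.76, 13.61 and 13.12 on the knockout arrays, a difference of 0.63 ± 0.44 (SE). Replicate 1 went the other way, at −0.67, against 1.49 and 1.06 in replicates 2 and 3. Leaving out 1 array moved the difference between 0.39 (without wild-type replicate 3) and 1.08 (without wild-type replicate 1), with 0.42 without wild-type replicate 2 and 0.41 without knockout replicate 2. The other probe sets were at 0.12 ± 0.47 and −0.01 ± 0.19 (SE), so 1 of the 3 probe sets carried the difference.

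*Igf2bp3*, which binds messenger RNAs and is best known from embryonic tissue and tumours, had small differences, with little spread on its brightest probe set. The brightest probe set (1422610_s_at) measured 9.07, 8.75 and 9.18 in wild type (9.00 ± 0.23, SD, n = 3) and 9.44, 9.92 and 9.84 in knockout (9.74 ± 0.26, SD, n = 3). The groups did not overlap, and the difference was 0.73 ± 0.20 (SE), or 1.66-fold (limma adjusted p = 0.924). All 6 probe sets lay higher in knockout, by 0.45 to 0.73. Of these, 4 separated the genotypes fully (exact two-sided permutation p of 0.1 each), as did 4.48% of all probe sets with knockout higher. The 6 probe sets read 1 gene and are not independent. On the remaining probe sets, 1422611_s_at and 1453957_a_at, knockout replicate 1 lay below wild-type replicate 1, by −0.31 and −0.67. The knockout arrays spread more there (SD 0.79 and 0.895). *Igf2bp1* of the same family, listed among the related genes below, differed by 0.24 ± 0.40 (SE), with knockout replicate 1 at 7.90 and the other 5 arrays between 8.29 and 9.34.

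**Figure D2:**
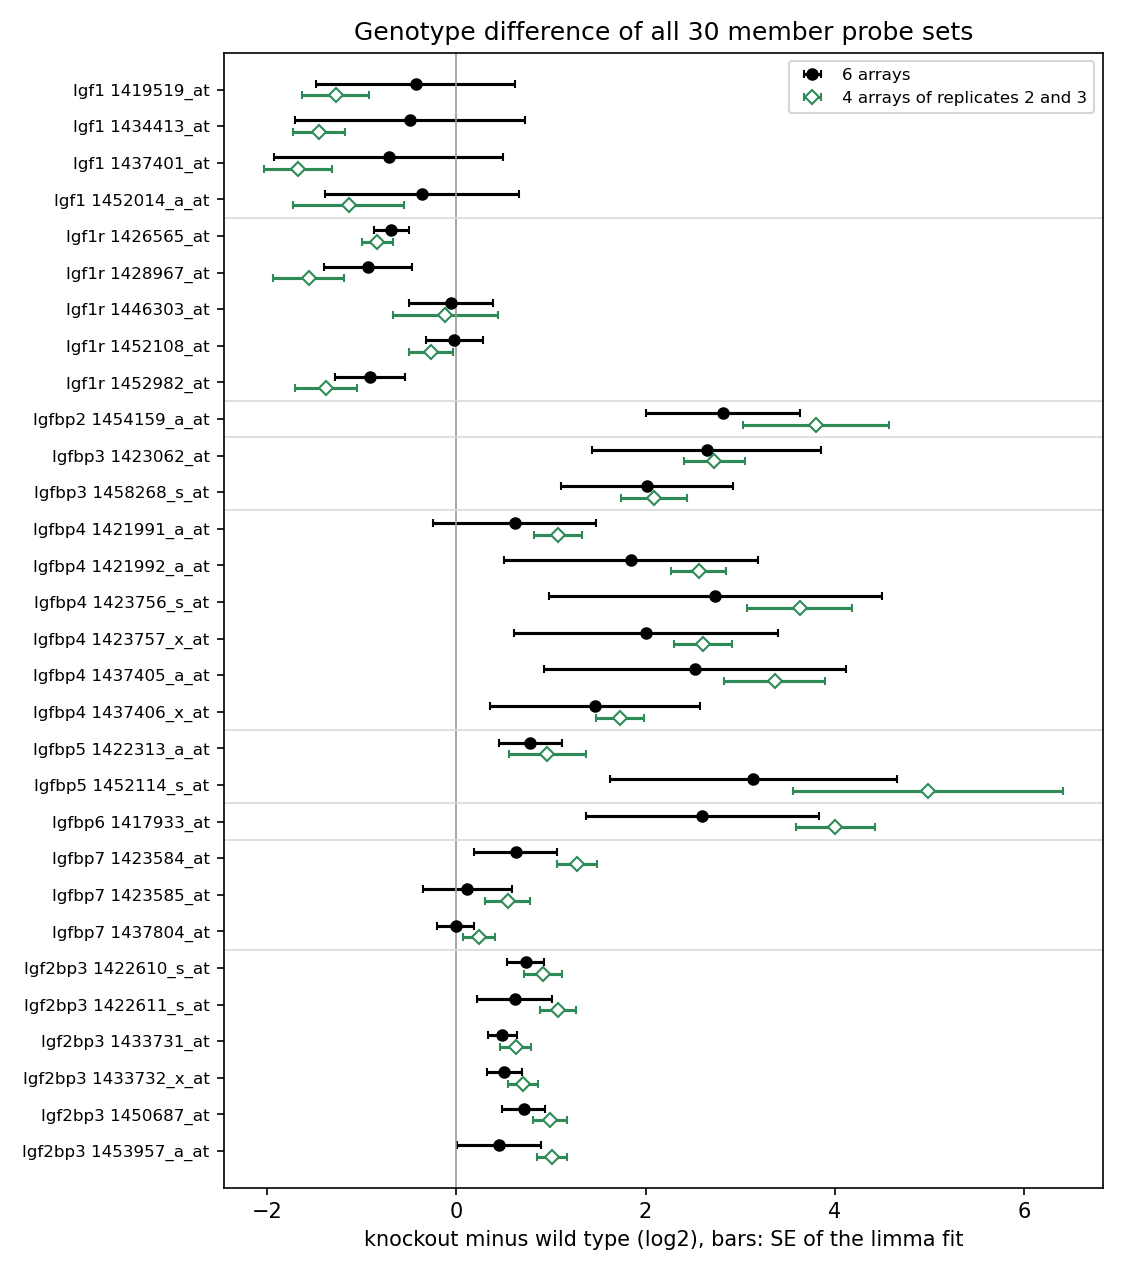
Difference between knockout and wild type (horizontal axis, log2) for all 30 probe sets, grouped by gene; filled circles are fits over 6 arrays, open diamonds fits over the 4 arrays of replicates 2 and 3, and bars the SE. All probe sets of *Igf1* and *Igf1r* lie below 0 and all of *Igfbp2* to *Igfbp6* and *Igf2bp3* above it, with shorter bars over 4 arrays for most carriers.

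Over the 4 arrays of replicates 2 and 3, an alternative added with the results in view, 6 of the 30 probe sets were called higher in knockout (2.01% of all probe sets were) and 0 lower (2.06% were). They were 1 probe set of *Igfbp3* (2.73 ± 0.32, SE; limma adjusted p = 0.0338), 4 of *Igfbp4* (1.73 to 3.63) and that of *Igfbp6*. *Igfbp6* differed by 4.01 ± 0.42 (SE), or 16.1-fold, with a limma adjusted p of 0.0319. The difference of *Igfbp5* was wider, at 4.98 ± 1.43 (SE), and did not pass (limma adjusted p = 0.15), with its wild-type arrays at 4.78 and 8.94. *Igf1* stood at −1.67 to −1.14 over its 4 probe sets, and none of them passed (limma adjusted p from 0.0685 to 0.401). The shares over all probe sets again include dim ones, unlike the 30.

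With 1 probe set a gene and p-values adjusted over 18193 genes, the same 4 arrays gave 7 of 9 genes called. *Igfbp2*, *Igfbp3*, *Igfbp4*, *Igfbp6*, *Igfbp7* and *Igf2bp3* were called higher (7.56% of all genes were) and *Igf1r* lower (6.41% were), whereas over 6 arrays 0 were, as were 0.0% of all genes. *Igf1r* differed by −1.38 (limma adjusted p = 0.0459), and *Igfbp2* by 3.80, or 14.0-fold (limma adjusted p = 0.0294). Another fit weighted the 6 arrays by how closely each followed its genotype mean in these same data. It called 7 of 9 genes, 6 higher (6.7% of all genes were) and 1 lower (4.85% were), with *Igfbp5* in place of *Igfbp4*, and 6 genes were called in both. Its differences lay near those over 4 arrays (*Igfbp6* 4.10 and 4.01, *Igfbp2* 3.98 and 3.80), and it is not independent of that fit. By probe set the weighted limma fit called 0 of 30 and 0.0% of all. In the fit over 4 arrays each group had only 2 arrays, and the arrays left out were chosen because they stood apart.

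The brightest probe sets fell into different patterns over the arrays. *Igfbp3* and *Igfbp4* were high on replicate 1 of both genotypes, and *Igf1* was low there. *Igfbp2*, *Igfbp5* and *Igfbp7* were higher on replicate 1 than on the mean of replicates 2 and 3 in wild type (by 1.88, 3.59 and 1.35) but lower in knockout (by −1.07, −1.93 and −0.60). The other probe sets did not all follow, as 1422313_a_at of *Igfbp5* was at −0.06 in wild type and 1423585_at of *Igfbp7* at 0.27 in knockout. *Igfbp6* was 4.32 higher on replicate 1 in wild type and 0.10 in knockout. These are the arrays on which the proliferation genes were low, and the part of cell growth state in the differences was not tested.

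**Figure D3:**
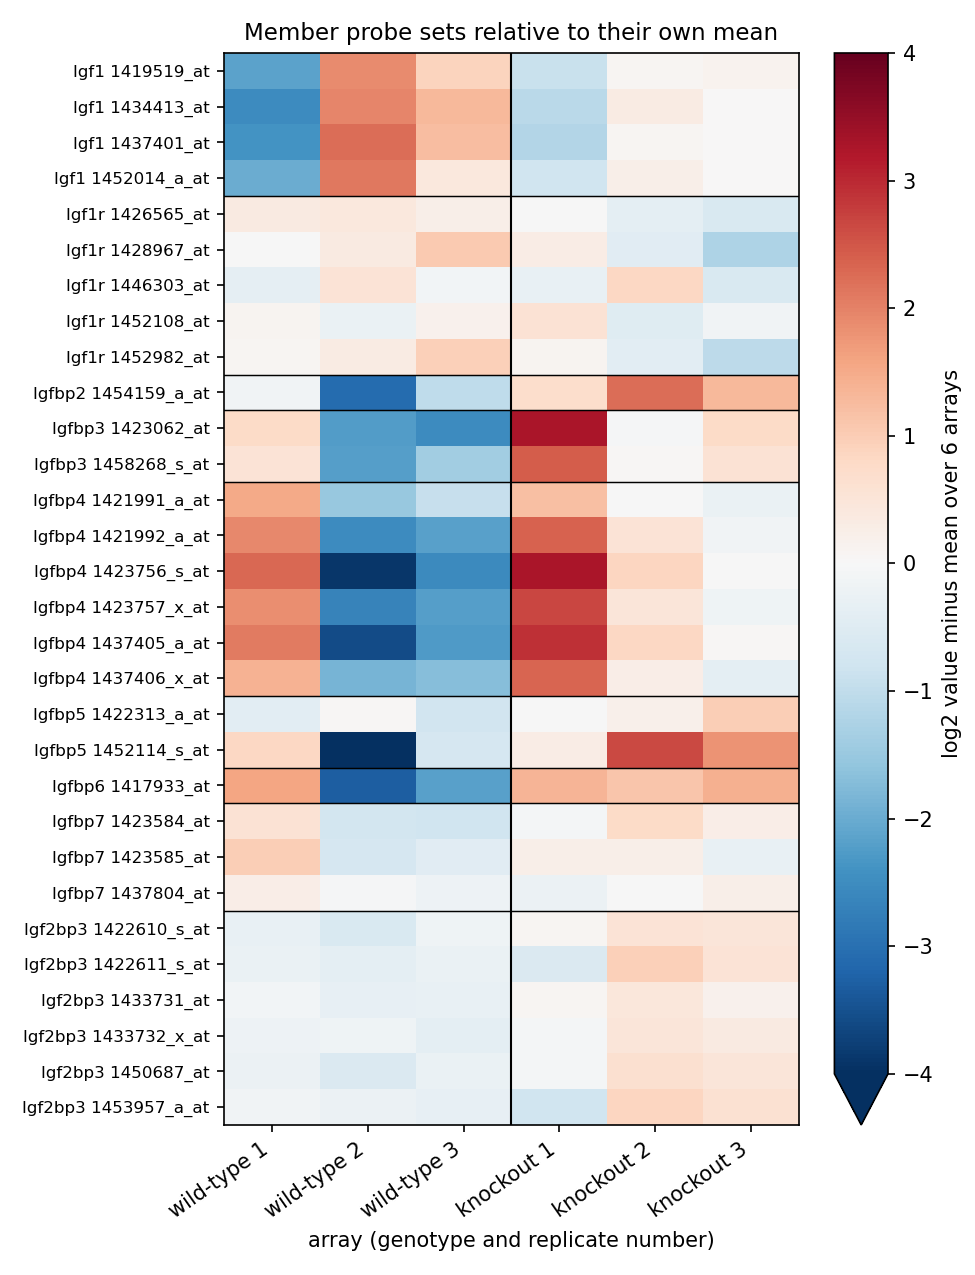
Each of the 30 probe sets (rows, grouped by gene) on each array (columns), coloured by its log2 value minus its own mean over the 6 arrays. *Igfbp3* and *Igfbp4* are red on replicate 1 of both genotypes and blue on wild-type replicates 2 and 3, whereas *Igf1* shows the reverse on wild-type arrays.

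The stretches of genome just before the transcription starts of *Igfbp2*, *Igfbp3*, *Igfbp4* and *Igfbp6* are shown. The genotypes did not overlap for *Igfbp2*, and the others passed the test by probe set over 4 arrays. The sequences are the 250 bases upstream of the RefSeq start (for *Igfbp2* the first of 2 listed), on the gene's own strand, in build GRCm38.p6. Capitals mark matches on either strand to 3 core promoter motifs, TATAAA (the TATA box), CCAAT (the CCAAT box) and GGGCGG (the GC box).
*Igfbp2*, chr1:72824230-72824479, plus strand: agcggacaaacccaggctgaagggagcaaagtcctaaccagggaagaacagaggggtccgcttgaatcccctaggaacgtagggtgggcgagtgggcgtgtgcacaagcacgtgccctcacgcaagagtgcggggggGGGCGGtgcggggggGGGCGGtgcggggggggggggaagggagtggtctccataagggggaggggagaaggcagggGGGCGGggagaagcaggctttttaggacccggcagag
*Igfbp3*, chr11:7213924-7214173, minus strand: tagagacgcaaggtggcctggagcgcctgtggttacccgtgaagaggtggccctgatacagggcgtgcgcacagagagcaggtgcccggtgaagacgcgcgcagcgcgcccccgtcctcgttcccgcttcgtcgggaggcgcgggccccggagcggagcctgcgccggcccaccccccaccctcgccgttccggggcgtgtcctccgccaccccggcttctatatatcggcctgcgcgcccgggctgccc
*Igfbp4*, chr11:99040994-99041243, plus strand: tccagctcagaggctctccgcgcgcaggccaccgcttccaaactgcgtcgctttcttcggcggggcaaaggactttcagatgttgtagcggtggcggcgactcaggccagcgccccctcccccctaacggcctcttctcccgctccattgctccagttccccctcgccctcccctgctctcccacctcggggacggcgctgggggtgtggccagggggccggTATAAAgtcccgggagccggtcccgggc
*Igfbp6*, chr15:102143936-102144185, plus strand: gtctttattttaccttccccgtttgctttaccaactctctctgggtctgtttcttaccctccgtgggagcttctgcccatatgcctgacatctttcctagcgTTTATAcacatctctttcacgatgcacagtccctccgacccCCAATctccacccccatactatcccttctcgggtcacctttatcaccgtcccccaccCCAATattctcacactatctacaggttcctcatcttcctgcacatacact
These 4 promoters differed in their motifs. That of *Igfbp4* holds TATAAA with its first base 28 bases before the start, and that of *Igfbp2* holds GGGCGG 3 times, at 113, 98 and 37 bases. *Igfbp6* holds CCAAT at 107 and 50 bases and TATAAA, on the other strand, at 148 bases, and *Igfbp3* holds none of the 3 exact strings. Only exact strings were searched, so related ones, such as tatatat in the stretch of *Igfbp3*, were not counted. Of the 10 promoters of the IGF axis genes, 2 held TATAAA, 3 CCAAT and 4 GGGCGG, while 12.4%, 33.8% and 32.7% of all 32851 listed promoters of this length did. A match is a string of letters and shows no binding.

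Related ligands, receptors and carriers did not move as 1 group. Of 10 measured, 5 lay higher and 5 lower over 6 arrays, 0 passed (2 at an unadjusted p under 0.05, both higher, where 4.01% of all genes were higher and 2.67% lower) and the median difference was 0.00, against 0.01 over all genes. That median includes dim genes, as *Igfbp1*, *Igfals* and *Insrr* lay below the median of all probe sets (5.64) on every array. With dim probe sets left out the median difference of the list was 0.32. *Igf2r*, the receptor that takes up and degrades IGF2, measured 11.69, 10.73 and 11.19 on the wild-type arrays and 11.85, 12.77 and 12.59 on the knockout arrays, a difference of 1.20 ± 0.35 (SE) with no overlap. *Kazald1*, an IGFBP-related secreted protein, was at 1.16 ± 0.28 (SE), also without overlap. The insulin receptor *Insr* was at −0.82 ± 0.46 (SE), with wild-type values of 7.30, 8.62 and 8.96 and knockout values of 7.88, 7.29 and 7.25. Over the 4 arrays *Igf2r* and *Kazald1* were called higher and *Insr* lower (1.72, 1.35 and −1.52), where 7.56% of all genes were called higher and 6.41% lower. *Igf2* differed by 0.41 ± 0.69 (SE), and by −0.03 over 4 arrays.

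The proteases that cleave IGF binding proteins, and their inhibitors, had 5 of 10 genes on each side of 0 and a median of 0.00, with 0 passing and 0 at an unadjusted p under 0.05. *Pappa*, the protease that cleaves IGFBP4, measured 9.25, 4.57 and 4.63 on the wild-type arrays and 8.90, 6.61 and 6.10 on the knockout arrays. It was thus high on replicate 1 of both genotypes, as *Igfbp4* was. Over 6 arrays it differed by 1.05 ± 1.47 (SE), with 0.20 to 2.60 when 1 array was left out. Over the 4 arrays it was called higher, by 1.75 ± 0.21 (SE), with a limma p of 0.0116 adjusted over 18193 genes. The adjusted p-values in the paragraphs on single members were adjusted over 45037 probe sets, so the values are not comparable. Of its 3 probe sets 2 lay higher and 1 was at −0.00. *Stc2*, an inhibitor of PAPPA, was lowest on wild-type replicate 1 (7.14, against 9.69 and 8.79 on the other wild-type arrays and 8.05, 7.59 and 7.52 in knockout) and differed by −0.82 ± 0.64 (SE) over 6 arrays, with −1.52 to −0.25 when 1 array was left out. It was called lower over 4 arrays (−1.69 ± 0.31, SE). *Htra1*, a secreted serine protease, was at 0.83 ± 0.82 (SE) over 6 arrays, with 0.19 to 1.73 when 1 array was left out, and was called higher over 4 (1.97). *Adam12*, a metalloprotease that cleaves IGFBP3 and IGFBP5, was at −0.71 ± 0.65 (SE) over 6 arrays and was called lower over 4 (−1.07). Of all genes, 7.56% were called higher and 6.41% lower over the 4 arrays.

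In the signalling chain from the receptor to PI3 kinase and Akt, 14 of 32 measured genes lay higher and 18 lower, with a median of −0.05. None passed over 6 arrays by limma. At an unadjusted p under 0.05 there was 1 of 32 higher and 4 lower, where 4.01% and 2.67% of all genes were. *Grb10*, an imprinted adaptor that dampens the IGF1 and insulin receptors, measured 12.10, 12.64 and 12.43 in wild type but 12.31, 8.17 and 7.94 in knockout. Knockout replicate 1 lay among the wild-type arrays, while knockout replicates 2 and 3 were below the wild-type arrays of the same number, by −4.46 and −4.49. All 3 probe sets had a negative difference (−2.92 to −1.31). The difference was −2.92 ± 1.18 (SE) over 6 arrays and −4.48 ± 0.17 (SE) over 4 (limma adjusted p = 0.743 and 0.00178). Without knockout replicate 1 it was −4.33 (limma adjusted p = 0.0263). These p-values were adjusted over 18193 genes.

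Other genes of this chain lay on both sides of 0. *Pik3r1*, a regulatory subunit of PI3 kinase, was at 0.94 ± 0.23 (SE), with knockout values of 8.69, 9.06 and 9.42 above the wild-type values of 8.05, 8.36 and 7.94. *Akt1*, the kinase downstream, was at −0.71 ± 0.19 (SE), with knockout values of 11.41, 10.98 and 10.99 below the wild-type values of 11.89, 11.99 and 11.62, although 1 of its 4 probe sets was at 0.12. The insulin receptor substrates *Irs1* and *Irs2* were at 0.44 ± 0.29 and −0.55 ± 0.44 (SE). Over the 4 arrays 3 of 32 genes were called higher (*Shc1*, *Pik3r1* and *Tsc2*) and 6 lower (*Irs2*, *Grb10*, *Pik3cb*, *Akt1*, *Phlda3* and *Foxo3*). Of all genes, 7.56% were called higher and 6.41% lower over these arrays. *Pik3cb*, a catalytic subunit, was at −2.65 and *Foxo3*, a transcription factor that Akt restrains, at −1.86 there.

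Growth hormone signalling, which drives *Igf1* in liver, had 4 of 9 measured genes higher and 5 lower with a median of −0.11, and 0 passed over 6 or 4 arrays (0 at an unadjusted p under 0.05 over 6). Over 4 arrays 7.56% of all genes were called higher and 6.41% lower. The growth hormone receptor *Ghr* lay between 10.32 and 10.96 on all arrays and differed by 0.01 ± 0.24 (SE). *Socs2*, a feedback inhibitor of this pathway, was at −0.87 ± 0.61 (SE) and *Socs3* at 0.42 ± 0.67 (SE).

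**Figure D4:**
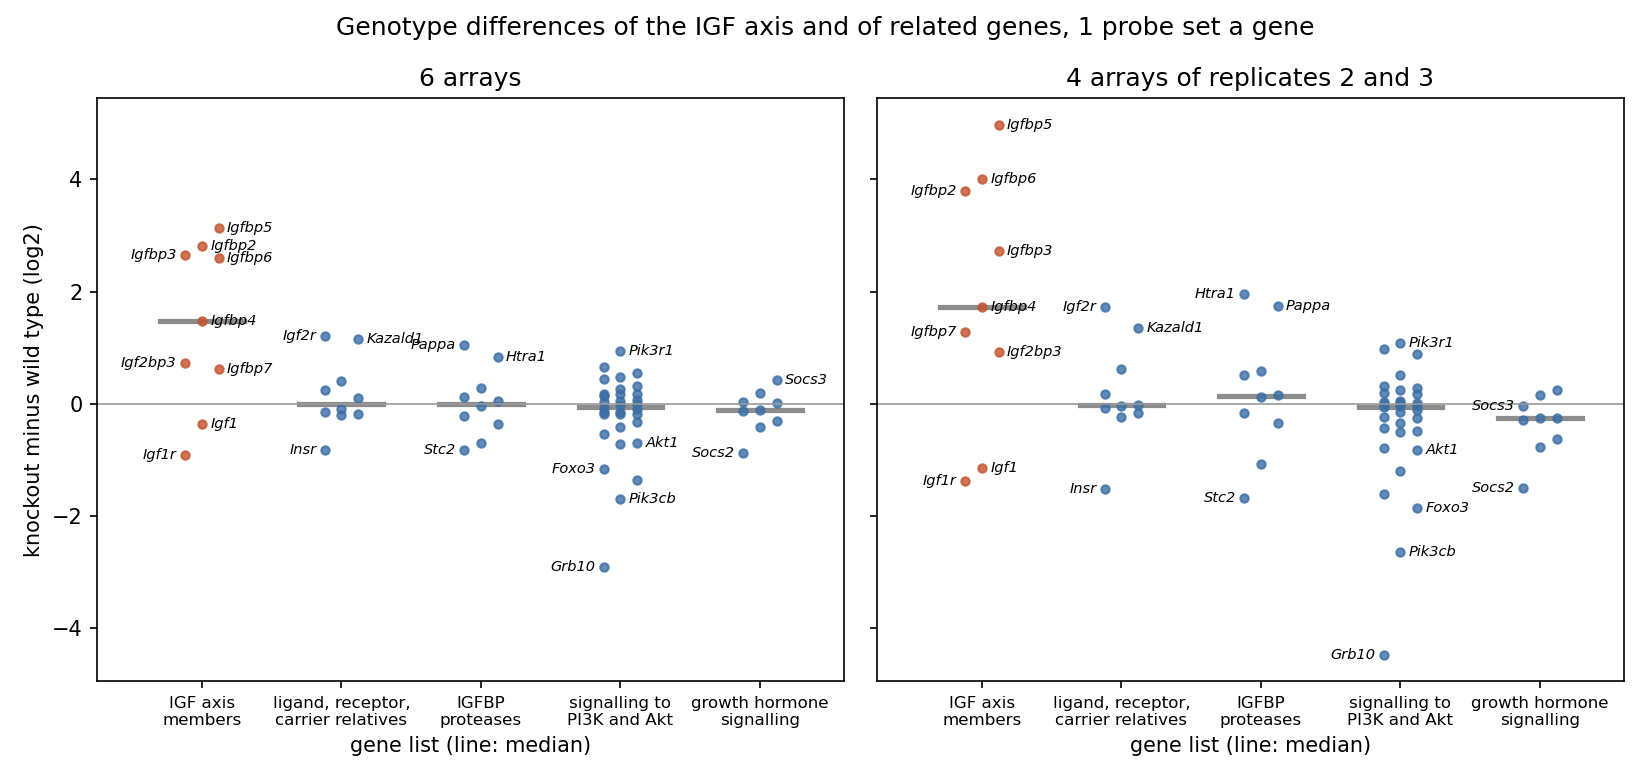
Difference between knockout and wild type (vertical axis, log2) of each gene on its brightest probe set, for the IGF axis genes and 4 lists of related genes, over 6 arrays (left) and over the 4 arrays of replicates 2 and 3 (right); grey lines are medians. The median of the IGF axis genes is 1.47 on the left and 1.73 on the right, and those of the other lists lie between −0.25 and 0.14. With dim probe sets left out, the median of the relatives over 6 arrays was 0.32. Members and lists were chosen with earlier results of these data known, so the contrast of medians is a description and no test.

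For each gene the 2 genes with the most similar array profile were found among 16319 named genes, by the root mean square difference of centred log2 values over the 6 arrays. *Igfbp2* was nearest to *Dcn*, a matrix proteoglycan (0.43), and *Medag* (0.45). *Igfbp4* was nearest to the matrix protease *Mmp3* (0.29) and *Tusc1* (0.39), and *Igfbp3* to *Stk26* (0.53) and *Ptprf* (0.59). *Igfbp5* was nearest to *Iqgap2* (0.38) and *Id4* (0.44), and *Igfbp6* to *Irx1* (0.21) and *Pdlim4* (0.26). *Igf1* was nearest to *Smc6* (0.39) and *Ranbp2* (0.43), *Igf1r* to *Zfyve26* and *Iqgap1* (both 0.13), *Igfbp7* to *Pkdcc* (0.16) and *Trim46* (0.17), and *Igf2bp3* to *Sema5b* and *Spats2* (both 0.07). Values are smaller for genes that vary less, so they do not rank the pairs.

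Of 18 fibroblast markers 15 lay higher in knockout over 6 arrays, where 51.1% of all genes did, with a median of 0.59 and 0 passing by limma. At an unadjusted p under 0.05 there were 4 higher and 0 lower, where 4.01% and 2.67% of all genes were. The matrix gene *Fn1* lay lower, at −0.18 ± 0.25 (SE). Their summed level was 16.95 to 17.21 in wild type and 17.29 to 17.43 in knockout (log2). *Dpt*, a matrix protein of the dermis, stood at 7.78, 4.61 and 6.65 on wild-type arrays and 8.88, 9.71 and 10.27 on knockout arrays, and *Thy1*, a surface marker chosen after its values were seen, measured 12.15, 4.65 and 7.17 against 11.71, 10.54 and 10.28. Wild-type replicate 2, the array with the lowest *Igfbp2*, *Igfbp5* and *Igfbp6*, was thus also the lowest for both. *Vim* was at −0.24 ± 0.13 (SE) and *Col1a2* at 0.13 ± 0.16 (SE).

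Of the 9 marker lists of other cell types, those of adipocytes and of glia and melanocytes had summed levels that did not overlap between genotypes. The adipocyte list (8 of 9 genes measured) stood at 8.56 to 9.83 in wild type and 10.29 to 12.34 in knockout (log2), with 4 genes higher and 4 lower. Its genes, named after their values were seen, did not behave alike. *Lpl* stood at 5.74, 4.57 and 8.82 against 7.82, 12.21 and 11.74 and was highest on knockout replicates 2 and 3. *Fabp4* stood at 7.80, 7.37 and 8.06 against 9.47, 6.62 and 6.17 and was highest on knockout replicate 1. *Cebpa* did not overlap (5.35 to 6.64 against 7.15 to 8.51; 1.84 ± 0.48, SE) and was called higher over 4 arrays, *Pparg* was at 0.45 ± 0.22 (SE), and the defining markers *Adipoq* and *Lep* lay between 3.47 and 4.12 on all arrays. Glial and melanocyte markers (9 of 11 measured) stood at 8.75 to 9.16 and 9.55 to 9.60, with 2 genes higher and 7 lower. *Mitf* differed most among them (6.74, 7.22 and 7.71 against 8.51, 8.92 and 8.80), and the other 8 genes lay between −0.13 and 0.07. Leukocyte markers (11 of 13 measured) had a summed level of 9.63 to 9.96 in wild type and 8.86 to 11.49 in knockout, highest on knockout replicate 1. Skeletal muscle markers (14 of 14) ran from 9.84 to 12.95 in wild type and 8.88 to 11.72 in knockout, highest on replicate 1 of each genotype. *Acta1* varied most in that list (12.85, 10.11 and 9.07 against 11.48, 6.59 and 7.13), while *Myod1*, *Myog*, *Myf5* and *Pax7* lay between 3.18 and 4.49. The part of these cell types in the results was not tested.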

How the data were processed

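The deposited values are log2 probe set intensities; the submitters' processing notes name RMA and R 2.11.1. RMA quantile-normalises arrays, so a change in total RNA cannot be seen and dim probe sets are compressed. Of 45101 probe sets 64 controls were left out, and genes were named from the platform table (34945 probe sets with 1 gene, 932 with several, 9160 with none).

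Knockout was set against wild type using limma 3.58.1 (R 4.3.3; lmFit, then eBayes at its defaults; genotype alone in the model). P-values were adjusted by Benjamini-Hochberg over all 45037 probe sets at 0.05, or over 18193 genes, each on its probe set with the highest mean. The scripts were tested on simulated data. The members, lists and alternatives were chosen with earlier results of these data known. Alternatives were the replicate block, leaving out each array, array weights, other scaling, filtering, priors and choice of probe set, and the 4 arrays of replicates 2 and 3, added after seeing the data. The text names all members, the gene of smallest p in each direction of each pathway, proliferation and fibroblast list, *Igf2*, *Igf2r*, *Grb10*, *Pappa*, *Irs1*, *Irs2*, *Ghr* and *Socs2*, and the genes of most similar profile for members ranging over more than 1. Other named genes were chosen after their values were seen. Over the proliferation list *Ccne1* was at 0.53 ± 0.22 and *Rrm2* at −0.64 ± 0.38 (SE). Summed levels of the smooth muscle, cartilage, bone, keratinocyte and endothelial marker lists overlapped between genotypes.

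Deviations from genotype means correlated at 0.50, 0.49 and 0.25 between arrays of the same replicate number. Wild-type replicate 3 correlated more with knockout replicate 2 (0.33) than with knockout replicate 3 (0.25). No label states a pairing, so differences by replicate number are a description and the paired fit is only an alternative. Since no label states separate animals, p-values reflect only the spread among these arrays, possibly technical, and precision is limited by their number.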

Additional observations from a re-analysis of the deposited data

How the results depend on the processing

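Of the alternatives run, the 4 arrays of replicates 2 and 3 alone called member probe sets, 6 in all, where 1836 of all probe sets were. By gene, 7 members were called over these 4 arrays (7.56% of all genes were called higher and 6.41% lower) and 7 with array weights (6.7% and 4.85%). The list of ligand, receptor and carrier relatives had 3 and 3 genes called under these settings, the proteases 4 and 1, and the PI3 kinase chain 9 and 7. Leaving out 1 array called 0 to 48 of all probe sets (48 without knockout replicate 1), 0 to 1 genes of the PI3 kinase chain, and 0 of every other count. In the paired fit, with a replicate block, limma called 0 in each count, and the block changed no call. *Igf1* turned from −0.36 to 0.60 without wild-type replicate 2 (−1.45 to 0.60 over the arrays left out). *Igf2* ran from −0.34 to 0.89 and *Socs3* from −0.29 to 0.80 when 1 array was left out, with −0.033 and −0.038 over 4 arrays. *Ghr*, at 0.01, ran from −0.17 to 0.17, and was at −0.25 over 4 arrays, −0.002 with median centring, −0.10 with array weights and −0.15 as the mean of its probe sets. The cause of these changes was not tested. Of the other values of single genes, 371 kept their direction and side of the threshold and 37 passed it in the same direction. List medians near 0 changed sign when 1 array was left out, from −0.12 to 0.08 for the relatives, −0.24 to 0.17 for the proteases and −0.29 to 0.01 for growth hormone signalling. With dim probe sets left out the median of the relatives was 0.32. All 30 probe sets had a mean over the 6 arrays at or above the median of all probe sets (5.64), so the filter on dim probe sets removed none. Single arrays lay below it, among them wild-type replicate 2 for *Igfbp2* (4.63), *Igfbp3* (5.18) and *Igfbp5* (4.78), and wild-type replicate 3 for *Igfbp3* (4.89). The fold differences of these genes therefore rest partly on dim wild-type values.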
